A study of Homo sapiens with 6 samples.

Results

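The HOX genes were followed in CCD18Co, an established line of human colon fibroblasts, after silencing of *LTBP2*. They were taken as every protein-coding row of the count table whose symbol is HOXA, HOXB, HOXC or HOXD followed by a number, which gave 39 of the 60663 genes. All cells came from this single line. They were transfected for 6 h with siRNAs directed at *LTBP2* (siLTBP2) or with non-targeting siRNAs (siNT). RNA was taken at 48 h, with 3 libraries per group. Nothing in the sources says that the libraries came from separate cultures, so p-values measure the spread between these libraries. Libraries were made from total RNA after removal of ribosomal RNA, and the authors deposited raw read counts per gene.

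HOX genes code for transcription factors with a DNA-binding homeodomain and lie in the HOXA, HOXB, HOXC and HOXD clusters. Within a cluster the genes are numbered from 1 to 13 by their order along the chromosome, and in the embryo low numbers are used toward the head and high numbers toward the tail. Fibroblasts keep much of this pattern in culture, so that the set of HOX genes they express reflects the body site they came from. HOX proteins bind DNA together with cofactors of the TALE family (PBX, MEIS and PKNOX), and Polycomb and trithorax complexes keep the genes off or on.

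Depth was between 44663424 and 53576899 counts per library, of which HOX genes took from 11133 to 14591 counts. A count of 3, used here as the detection limit, was between 0.0560 and 0.0672 CPM (the count scaled to library size) of raw depth and covers counting error only. *LTBP2* itself fell to 30.4% of its siNT level (log2 fold change -1.72 ± 0.15, SE, with an edgeR adjusted p = 6.6e-05). The fibroblast genes *COL1A1*, *COL1A2*, *COL3A1*, *PDGFRA*, *PDGFRB*, *THY1*, *DCN*, *LUM* and *VIM* were all expressed in both groups. *KRT20*, *SOX10*, *S100B* and *ELAVL4*, markers of other cells, had no count in any library, which allows up to 3 counts per library. The 6 epithelial markers summed to at most 0.161 CPM in any library, the 5 leukocyte markers to 0.486 CPM and the 6 enteric neural and glial markers to 0.423 CPM. Bulk RNA cannot tell fewer cells of a kind from less RNA per cell.

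The first question was which HOX genes CCD18Co expressed. Levels of different genes were compared as TPM, which scales counts by the exonic length of each gene as well as by library size, and a gene was called expressed at a mean of at least 1 TPM in siNT. By this measure 24 of the 39 genes were expressed. They were all 11 genes of HOXA, 7 of 10 of HOXB, 3 of 9 of HOXC and 3 of 9 of HOXD. For genes near the limit the label depended on the gene length used. *HOXB13* was at 0.947 TPM with the longest annotated transcript as the length. *HOXD3* was at 0.865 TPM when only exonic bases not shared with another gene on the same strand were taken.

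**Figure D1:**
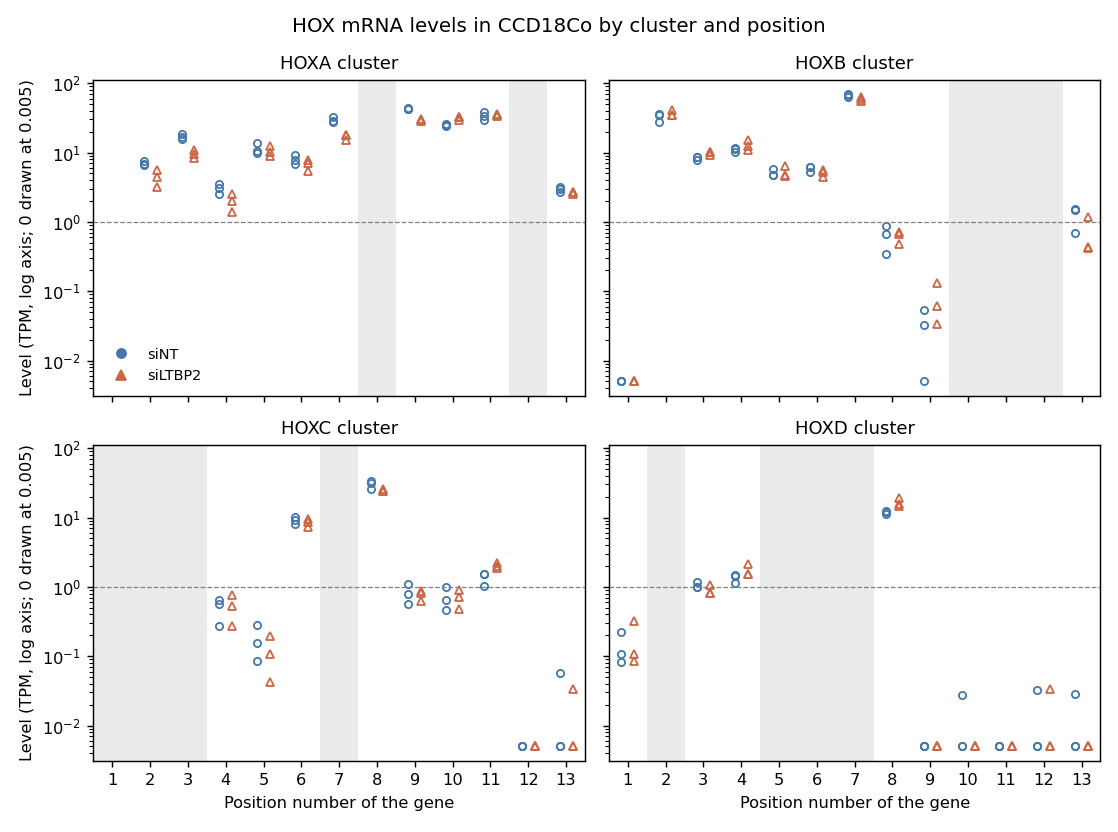
Level of HOX genes in TPM (log axis) against its position number, 1 panel per cluster, with 3 siNT libraries as circles and 3 siLTBP2 libraries as triangles. Grey bands mark positions with no gene in that cluster, the dashed line marks 1 TPM and a level of 0 is drawn at 0.005, and the HOXA genes drawn lie above the dashed line in both groups, while HOXD is high only at *HOXD8*.

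*HOXB7* had the highest level of all HOX genes, with 64.1, 66.6 and 69.7 TPM in siNT replicates 1 to 3 and 55.6, 63.7 and 58.2 TPM in siLTBP2. Its log2 fold change on the CPM scale was -0.14 ± 0.10 (SE, edgeR adjusted p = 0.36), and the groups did not overlap in TPM but did overlap in CPM. *HOXA9*, the most abundant gene of its cluster, was second in siNT, with 44.1, 42.5 and 42.1 TPM. In both cases the 3 siNT libraries lay apart from those of the next gene in the order.

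Below *HOXA9*, the levels of *HOXA11* (33.6 ± 4.31 TPM, SD, n = 3), *HOXB2* (32.6 ± 4.21), *HOXC8* (30.2 ± 4.02) and *HOXA7* (29.6 ± 2.23) overlapped from each gene to the next in siNT. *HOXA10* followed at 25.0 ± 0.47 TPM, apart from its neighbours on both sides. *HOXA3* was at 17.0 ± 1.27 TPM. The first 7 genes of this order held 67.0% of the summed HOX level in siNT. Their order among themselves depended on the gene length used. With the longest annotated transcript as the length, *HOXA10* ranked 4 (27.7 TPM), above *HOXA7* (26.9), *HOXA11* (25.5) and *HOXC8* (22.9).

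*HOXC8* was the most abundant gene of HOXC, with 33.4, 25.7 and 31.4 TPM in siNT and 25.5, 24.5 and 24.5 TPM in siLTBP2. On the CPM scale its log2 fold change was -0.25 ± 0.12 (SE, edgeR adjusted p = 0.16), where the groups overlapped, while in TPM they did not. *HOXD8* was the most abundant gene of HOXD at 12.04 ± 0.60 TPM in siNT, about the level of *HOXA5* (11.4 ± 1.94) and *HOXB4* (11.1 ± 0.75), with which it overlapped. The other expressed genes of these clusters were low, at 9.04 TPM for *HOXC6* and between 1.05 and 1.37 TPM for *HOXC11*, *HOXD4* and *HOXD3*.

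Of the remaining HOXA genes, *HOXA6* was at 7.98 TPM, *HOXA2* at 6.90, *HOXA4* at 3.03 and *HOXA13* at 2.93 TPM in siNT. In HOXB, *HOXB3* was at 8.34, *HOXB6* at 5.88, *HOXB5* at 5.07 and *HOXB13* at 1.25 TPM. *HOXB13* is the last gene of its cluster and lies apart from the others. The lowest of its siNT libraries was at 0.698 TPM. With the longest annotated transcript as the length in place of all exonic bases its mean was 0.947 TPM, under the limit for expressed, and it ranked 24 of the 39 genes instead of 23.

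A further 4 genes were tested but stayed below 1 TPM in siNT. They were *HOXC9* (0.816 TPM), *HOXC10* (0.697), *HOXB8* (0.630) and *HOXC4* (0.493). The other 11 genes had too few counts to test. *HOXB1*, *HOXC12*, *HOXD9* and *HOXD11* had 0 counts in all 6 libraries, and *HOXB9*, *HOXC5*, *HOXC13*, *HOXD1*, *HOXD10*, *HOXD12* and *HOXD13* reached at most 7 counts in any library. For *HOXC5*, 67.3% of the exonic bases are shared with other annotated genes on the same strand, so that its low count is uncertain.

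By position number, the 2 genes of position 7 held 24.8% ± 1.29 (SD, n = 3) of the summed HOX TPM in siNT. Positions 9, 8 and 2 held 11.25%, 11.002% and 10.1%. Position 13 held 1.08%, almost all of it from *HOXA13* and *HOXB13*, and position 12, whose 2 genes are *HOXC12* and *HOXD12*, held 0.0027%.

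The second question was which HOX genes differed between siLTBP2 and siNT. Of the 28 genes tested, 6 changed at an adjusted p below 0.05, which is 21.4% of them, against 19.3% of all 16920 genes tested. The HOX genes as a group were thus called at close to the rate of all genes. *HOXA2*, *HOXA3*, *HOXA7* and *HOXA9* were lower in siLTBP2 (14.3% of those tested, against 9.51% of all genes), and *HOXA10* and *HOXD8* were higher (7.14%, against 9.76%). With the replicate number as a block the count was 11, or 39.3%, against 36.2% of all genes. Leaving out replicate 1 or 2 of siNT, or replicate 1 or 3 of siLTBP2, gave a count of 3 in each case, made up of *HOXA3*, *HOXA7* and *HOXA9*. The share of all genes that changed was lower in these fits too, at between 12.6% and 15.9%.

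No HOX gene was deregulated by the stricter threshold of an adjusted p below 0.01 and a change of more than 2-fold, which 2.57% of all genes passed. The count was also 0 under the likelihood ratio test and DESeq2. In edgeR's quasi-likelihood test 9 HOX genes had an unadjusted p below 0.05, a count for which the share of all genes is not given here. The 3 libraries of one group lay entirely above or below those of the other in 10 of the 28 genes (35.7%), against 37% of all genes. The median log2 fold change was -0.07 over the 28 HOX genes and -0.01 over all genes.

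**Figure D2:**
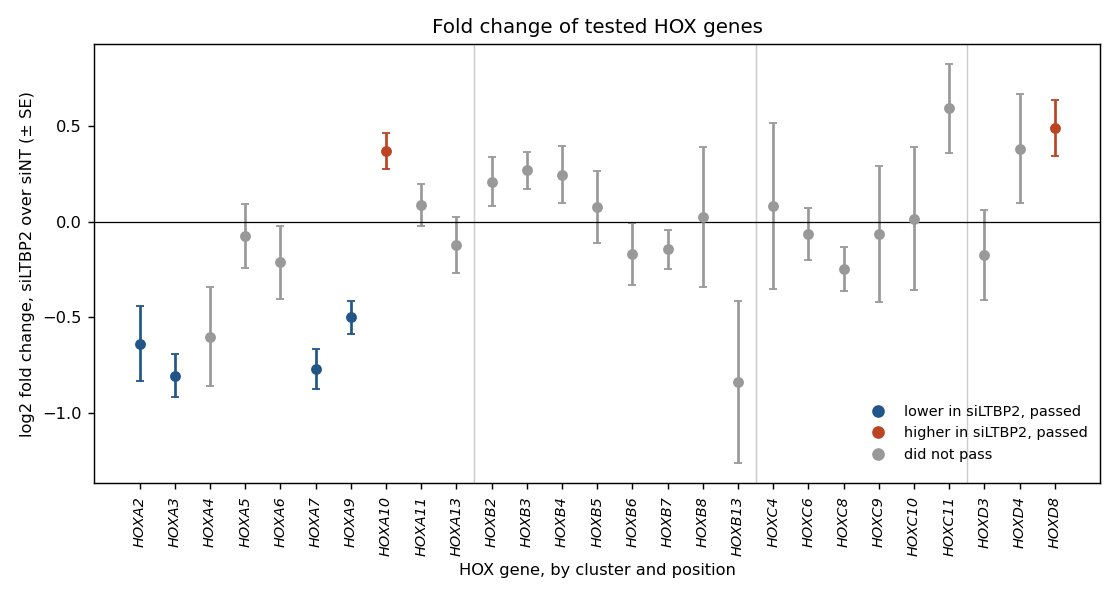
log2 fold change of siLTBP2 over siNT for tested HOX genes, ordered by cluster and position, with standard errors as bars and vertical lines between clusters. Blue points (*HOXA2*, *HOXA3*, *HOXA7*, *HOXA9*) and red points (*HOXA10*, *HOXD8*) passed an adjusted p of 0.05, and grey points did not.

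*HOXA3* (ENSG00000105997, chr7:27106184-27152583 of GRCh38, minus strand) is a patterning gene of the pharyngeal region in the embryo. Its level was 20.2, 19.4 and 18.5 CPM in siNT replicates 1 to 3, and 12.3, 10.8 and 10.1 CPM in siLTBP2. All siLTBP2 libraries lay under all siNT libraries, and the mean level was 57.2% of that in siNT. The fitted log2 fold change was -0.81 ± 0.11 (SE, edgeR adjusted p = 8.4e-04). With any 1 library left out it stayed between -0.89 and -0.74 and kept its call.

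*HOXA7* (ENSG00000122592, chr7:27153716-27157936, minus strand) lies upstream of the annotated 5′ end of *HOXA3*. It was at 19.8, 17.8 and 18.7 CPM in the siNT libraries and 11.4, 11.4 and 10.2 CPM after silencing. The groups did not overlap, and the mean fell to 58.7% of siNT. Its log2 fold change of -0.77 ± 0.11 (SE, edgeR adjusted p = 8.0e-04) lay between -0.81 and -0.72 with any 1 library left out, and the call was kept each time.

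*HOXA9* (ENSG00000078399, chr7:27162438-27175180, minus strand), a gene with a long-known role in blood stem cells and leukaemia, was at 34.1, 34.1 and 34.6 CPM in siNT. In siLTBP2 it was at 24.5, 23.8 and 24.4 CPM. The libraries of each group lay close together and far from the other group. The log2 fold change was -0.50 ± 0.08 (SE, edgeR adjusted p = 0.0025), with a range of -0.51 to -0.49 when 1 library was left out. In TPM *HOXA9* went from rank 2 among the HOX genes in siNT to rank 5 in siLTBP2.

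*HOXA10* (ENSG00000253293, chr7:27170605-27180261, minus strand) partly overlaps *HOXA9* in the annotation and is known for its role in the uterus. It was at 24.1, 24.0 and 25.2 CPM in the siNT libraries and 31.5, 29.4 and 34.0 CPM after silencing. All siLTBP2 libraries were higher, at 129% of siNT on average. The log2 fold change was 0.37 ± 0.09 (SE, edgeR adjusted p = 0.019). The call was lost without replicate 1 or 2 of siNT or replicate 1 or 3 of siLTBP2, the log2 fold change ranging from 0.32 to 0.42 over all libraries left out and adjusted p-values up to 0.070.

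Within each library, the ratio of *HOXA10* to *HOXA9* in CPM was 0.706, 0.706 and 0.728 in siNT and 1.28, 1.23 and 1.40 in siLTBP2. This ratio was chosen after the values were seen and is given as a description. Since CPM is not corrected for length, only its difference between the groups can be read. *HOXA9* shares 15.9% and *HOXA10* 9.93% of its exonic bases with annotated genes on the same strand, mainly a readthrough transcript.

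*HOXA2* (ENSG00000105996, chr7:27100354-27102686, minus strand), a patterning gene of the hindbrain and second pharyngeal arch, was at 4.43, 4.17 and 4.12 CPM in the siNT libraries and 2.71, 3.43 and 2.05 CPM after silencing. The groups did not overlap, although the siLTBP2 libraries were spread. The log2 fold change was -0.64 ± 0.20 (SE, edgeR adjusted p = 0.044). The call was lost whichever library was left out other than siLTBP2 replicate 2, the log2 fold change ranging from -0.84 to -0.46, and also with upper-quartile scaling (edgeR adjusted p = 0.052).

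*HOXD8* (ENSG00000175879, chr2:176129694-176132695, plus strand) was the other gene that rose. It was at 7.65, 8.75 and 8.66 CPM in the siNT libraries and 11.01, 10.2 and 14.02 CPM after silencing. The groups did not overlap, and siLTBP2 replicate 3 was the highest. The log2 fold change was 0.49 ± 0.14 (SE, edgeR adjusted p = 0.037). Its call too was kept only without siLTBP2 replicate 2 among the libraries left out, the log2 fold change ranging from 0.34 to 0.58, and it was lost with total-count scaling (edgeR adjusted p = 0.064).

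**Figure D3:**
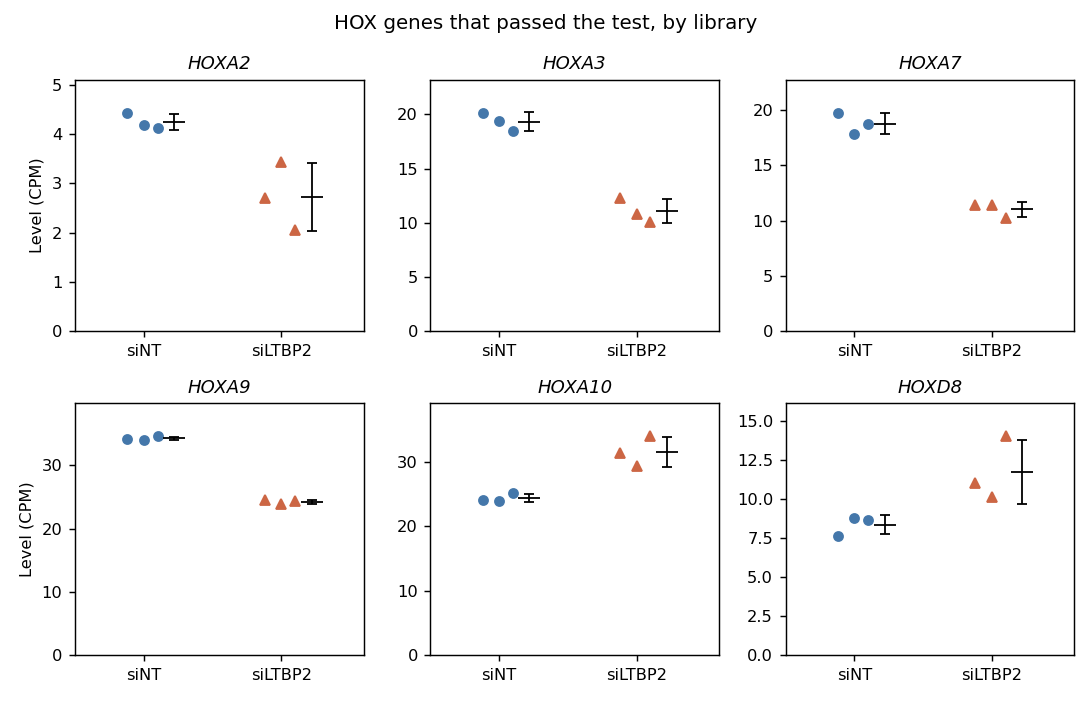
Level in CPM of the 6 HOX genes that passed the test, 1 point per library, with circles for siNT and triangles for siLTBP2 and the mean ± SD beside them (n = 3). In none of the 6 do the groups overlap, with *HOXA2*, *HOXA3*, *HOXA7* and *HOXA9* lower and *HOXA10* and *HOXD8* higher in siLTBP2.

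Of the 22 tested genes that did not pass, 4 were among the 10 without overlap (35.7% of HOX genes tested, against 37% of all). They were *HOXA4* (log2 fold change -0.60, edgeR adjusted p = 0.14), *HOXB3* (0.27, adjusted p = 0.079), *HOXC11* (0.59, adjusted p = 0.10) and *HOXD4* (0.38, adjusted p = 0.40). With the replicate number as a block, *HOXA4* (-0.62, adjusted p = 0.036), *HOXB13* (-0.87, adjusted p = 0.021) and *HOXC8* (-0.24, adjusted p = 0.036) were also called lower, and *HOXB3* (0.27, adjusted p = 0.016) and *HOXC11* (0.60, adjusted p = 0.025) higher.

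*HOXB13* had the lowest fitted value of all HOX genes and one of the largest errors, at -0.84 ± 0.43 (SE, edgeR adjusted p = 0.20). Its levels were 1.17, 1.24 and 0.575 CPM in siNT and 0.344, 0.952 and 0.361 CPM in siLTBP2. One library of each group lay near the other group, so the groups overlapped. Without siLTBP2 replicate 2 the log2 fold change was -1.48 and passed the test (edgeR adjusted p = 0.042).

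Among the remaining HOXA genes were log2 fold changes of 0.09 (*HOXA11*), -0.08 (*HOXA5*), -0.12 (*HOXA13*) and -0.21 (*HOXA6*). In HOXB the values were 0.25 (*HOXB4*), 0.21 (*HOXB2*), 0.08 (*HOXB5*), 0.03 (*HOXB8*) and -0.17 (*HOXB6*). *HOXC4* (0.08), *HOXC10* (0.02), *HOXC6* (-0.06), *HOXC9* (-0.07) and *HOXD3* (-0.18) followed in the other clusters. For *HOXB8*, *HOXC4*, *HOXC9* and *HOXC10* the standard errors were between 0.36 and 0.43, so that a difference of the size seen in *HOXA9* was not detectable at this depth.

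Genes of the same position number in different clusters can be set side by side. *HOXA3* fell, while *HOXB3* was at 16.3, 17.0 and 15.6 CPM in the siNT libraries and 19.9, 20.0 and 19.0 CPM after silencing. Likewise *HOXA7* fell, while *HOXB7* overlapped between the groups in CPM. The CPM ratio of *HOXA3* to *HOXB3* was between 1.14 and 1.24 in the siNT libraries and between 0.533 and 0.617 in the siLTBP2 libraries. That of *HOXA7* to *HOXB7* was between 0.652 and 0.794 in siNT and between 0.415 and 0.512 in siLTBP2. These ratios were picked after the values were seen and were not tested.

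By cluster, HOXA took 52.8%, 51.2% and 50.03% of the summed HOX TPM in siNT and 49.2%, 47.3% and 46.2% in siLTBP2. HOXB took 33.9% ± 1.14 (SD, n = 3) in siNT and 36.5% ± 1.22 in siLTBP2, and HOXD 3.77% ± 0.31 and 5.42% ± 0.72. For these 3 clusters the shares of the groups did not overlap, a separation that 37% of all genes tested singly also showed in CPM. The share of HOXC was 10.98% ± 0.50 and 10.5% ± 0.31, with overlap. The shares of a library add up to a whole, so a lower share of HOXA raises the others. In CPM, the summed level of HOXA was 151 ± 6.74 in siNT and 132 ± 4.02 in siLTBP2 (SD, n = 3), and that of HOXB was 78.0 ± 1.88 and 82.4 ± 2.90. HOXC was at 29.9 ± 2.12 and 27.1 ± 0.41 CPM, and HOXD at 9.87 ± 0.61 and 13.3 ± 2.17 CPM. Of the clusters, only HOXC overlapped between the groups in CPM, and the cluster sums were not tested. Most of the HOXD sum came from *HOXD8* alone, with means of 8.36 (siNT) and 11.7 CPM (siLTBP2). Of the 9 HOXD genes, 6 had too few counts to test, so the HOXD values do not describe the whole cluster. The sum over all HOX genes was 269 ± 9.24 CPM in siNT and 255 ± 6.18 CPM in siLTBP2, and the groups overlapped.

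**Figure D4:**
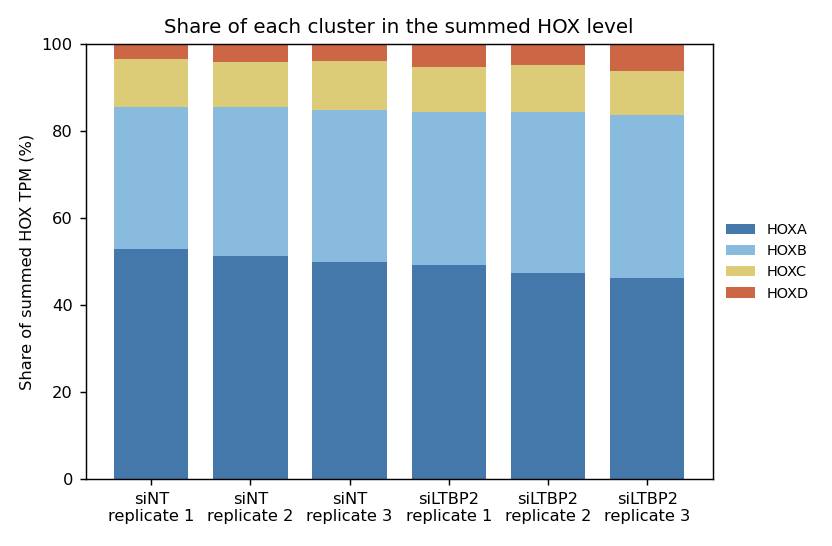
Share of the HOXA, HOXB, HOXC and HOXD genes in the summed HOX level (percent of TPM), 1 bar per library, 3 of siNT and 3 of siLTBP2. HOXA makes up 50.03% to 52.8% of the bar in siNT and 46.2% to 49.2% in siLTBP2.

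The genes that changed in HOXA were next described by their sequence. The clusters also hold genes for miRNAs, small RNAs that repress mRNAs through matches to their seed (bases 2 to 8). Members of the miR-196 family, coded within the annotated span of *HOXA9* (miR-196b) and in HOXB and HOXC (miR-196a), and miR-10a, coded in HOXB, are known to target HOX mRNAs. Their mature sequences from RefSeq (GRCh38.p14) are shown with the seed in capitals, because the seed is what the HOX mRNAs match. They lie at chr7:27169528-27169549 (miR-196b), chr17:48632532-48632553 and chr12:53991762-53991783 (both miR-196a) and chr17:48579904-48579926 (miR-10a).
hsa-miR-196b-5p: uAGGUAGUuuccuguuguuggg
hsa-miR-196a-5p: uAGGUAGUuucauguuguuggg
hsa-miR-10a-5p: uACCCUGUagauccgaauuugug

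Both miR-196 sequences share a seed, whose match in an mRNA is ACTACCT. This word was in the 3′ UTR of 8 of the 39 HOX genes, against 7.18% of 19076 protein-coding genes whose 3′ UTR spans 50 bases or more. *HOXA7* had 4 copies, *HOXC8* 3, *HOXA9* 2, and *HOXA5*, *HOXB1*, *HOXB6*, *HOXB7* and *HOXB13* 1 each. The match to miR-10a, ACAGGGT, was in 3 of the 39, *HOXA3* and *HOXB3* among them (12.8% of all genes). The sites of the 3 lower genes of highest level are given below from GRCh38, 5′ to 3′ on the minus strand, with the seed match in capitals.
*HOXA7* chr7:27154600-27154622: tggcgcgtccaaaatACTACCTa
*HOXA7* chr7:27154563-27154585: tcgaggcacccccaaACTACCTa
*HOXA7* chr7:27154448-27154470: aaagtgaatctcactACTACCTa
*HOXA7* chr7:27154430-27154452: acctactcccctaaaACTACCTa
*HOXA9* chr7:27163254-27163276: aacaaaaggaaagaaACTACCTt
*HOXA9* chr7:27162692-27162714: tatgtgcagaaggttACTACCTa
*HOXA3* chr7:27107608-27107630: actctttgatcagaaACAGGGTa

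Mature miRNAs were not measured by these libraries. Among the 7 tested HOX genes with the miR-196 match, 2 were lower (*HOXA7* and *HOXA9*) and 5 did not pass, with a median log2 fold change of -0.25. Of all tested genes with a 3′ UTR, 9.65% of those with the match and 11.7% of those without it were lower. *HOXB7* carries the match and did not pass, and neither did *HOXC8* and *HOXB13*, which were called lower with the replicate block (adjusted p = 0.036 and 0.021 in edgeR). Over all genes with a 3′ UTR, the median was 0.02 in the 1016 genes with the match and 0.00024 in the 11287 without it. Of the HOX genes with the miR-10a match, *HOXA3* fell, and *HOXB3* had a log2 fold change of 0.27.

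Another word, GCACCCA, was looked at because its carriers had been seen to be lower in siLTBP2 in these same libraries, so it was chosen on the outcome. It was searched as a presumed match to the siRNA pool, whose sequences the paper does not give, and that match was not tested. Of the 1454 tested genes whose 3′ UTR holds the word, 27.9% passed as lower, against 9.35% of the 10849 without it. It was in the 3′ UTR of 5 of the 39 HOX genes, against 10.8% of all genes. *HOXA7* and *HOXA9* are among the 5, with 1 copy each, and their sites are shown with the word in capitals.
*HOXA7* chr7:27154191-27154213: ctggcttgGCACCCAcagctcag
*HOXA9* chr7:27163077-27163099: tgggtgatGCACCCAttgtgatt

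The other carriers were *HOXB13* (-0.84) and *HOXC10* (0.02), which did not pass, and *HOXD12*, which was not tested. *HOXA3* has 1 copy in its coding sequence and none in its 3′ UTR, and *HOXA2* has none in either. The part of this word in the lower levels of *HOXA7* and *HOXA9* was not tested.

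The promoters of 3 HOXA genes next to each other, of which 2 fell and 1 rose, are shown from RefSeq (GRCh38.p14) as 300 bases from 250 before to 50 after the annotated start. RefSeq windows were given for 20 of the HOX genes. Capitals mark matches on either strand to the E-box CACGTG or to TTTATNG, a word bound by CDX and posterior HOX proteins. Both words, and the MEIS core TGACAG and the PBX-HOX word TGATNNAT, were searched after the calls and these sequences had been seen.
*HOXA7* chr7:27156626-27156925, minus strand: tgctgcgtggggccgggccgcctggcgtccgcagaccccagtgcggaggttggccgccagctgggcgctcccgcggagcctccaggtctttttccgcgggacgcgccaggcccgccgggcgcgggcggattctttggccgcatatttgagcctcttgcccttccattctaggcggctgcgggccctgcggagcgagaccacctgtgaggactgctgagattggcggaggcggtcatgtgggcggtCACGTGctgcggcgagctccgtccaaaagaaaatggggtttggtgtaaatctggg
*HOXA9* chr7:27165488-27165787, minus strand: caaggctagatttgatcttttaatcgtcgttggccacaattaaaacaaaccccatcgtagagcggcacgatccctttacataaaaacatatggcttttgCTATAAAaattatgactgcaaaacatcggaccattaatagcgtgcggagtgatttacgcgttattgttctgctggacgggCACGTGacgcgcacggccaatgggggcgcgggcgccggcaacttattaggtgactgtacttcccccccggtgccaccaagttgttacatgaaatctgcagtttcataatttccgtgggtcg
*HOXA10* chr7:27174271-27174570, minus strand: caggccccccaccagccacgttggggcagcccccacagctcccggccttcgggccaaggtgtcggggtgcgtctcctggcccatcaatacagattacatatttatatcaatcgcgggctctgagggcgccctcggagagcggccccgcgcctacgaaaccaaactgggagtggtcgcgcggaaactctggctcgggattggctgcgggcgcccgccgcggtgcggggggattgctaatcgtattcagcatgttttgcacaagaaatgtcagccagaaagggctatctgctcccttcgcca

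CACGTG was in the windows of *HOXA7* and *HOXA9* and not in that of *HOXA10*. It was absent at the canonical starts of *HOXA2* and *HOXA3*, which fell, but another *HOXA3* window (chr7:27118308-27118607) holds it. It was present in *HOXA4* and *HOXD3*, which did not pass, although *HOXA4* was called lower with the replicate block (edgeR adjusted p = 0.036). The other carriers, *HOXD1*, *HOXD10*, *HOXD11* and *HOXD13*, had too few counts to test. A link between the word and the calls was not tested. CACGTG was in 9 of the 27 HOX windows (of which *HOXC4* and *HOXC5* share 1) against 7.26% of 35116 windows of all genes. TTTATNG was in 7 HOX windows (9.73% of all), TGACAG in 4 (15.8%) and TGATNNAT in 3 (7.398%). *HOXA10* has a second RefSeq start, whose window at chr7:27179812-27180111 holds 1 TTTATNG. A match is a run of letters and was not tested as a binding site.

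The clusters also code for long noncoding RNAs, many of them antisense to HOX genes. Of 18 listed, 9 were tested and none passed in edgeR's quasi-likelihood test or in its likelihood ratio test, while 1 (*HOTAIRM1*) had an unadjusted p below 0.05. *HOTAIRM1*, coded in HOXA, was at 1.44 ± 0.25 CPM in the siNT libraries and 2.00 ± 0.18 CPM after silencing (SD, n = 3; log2 fold change 0.47, edgeR adjusted p = 0.14). *HOXA10-AS*, whose exons face parts of *HOXA9* and *HOXA10*, had a log2 fold change of 0.27, *HOXA11-AS* of 0.29 and *HOXA-AS2* of 0.03. *HOXB-AS1* (0.35), *HOXB-AS3* (0.10), *HOXD-AS2* (0.16) and *HAGLR* (0.24) were the others above 1 CPM on average.

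The libraries were stranded, but whether strand was used in counting is not given in the sources used here, so reads of facing genes may not have been told apart. *HOXA-AS3* faces 62.5% of the exonic bases of *HOXA7* and was between 0.476 and 0.689 CPM in the 6 libraries, and its part in the values of *HOXA7* was not tested. *HOXA10-AS* faces 13.9% of *HOXA9* and 16.4% of *HOXA10* and was between 3.75 and 6.31 CPM. *HOXD-AS2* faces 24.4% of *HOXD8* and was between 2.56 and 3.47 CPM, and its part in the values of *HOXD8* was not tested.

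Outside the clusters, 2 of 10 tested neighbouring genes changed, both upward, close to the 19.3% of all genes. *LNPK* (log2 fold change 0.33, edgeR adjusted p = 0.023), beside HOXD, codes for an endoplasmic reticulum protein, and its call ended without replicate 1 or 3 of siNT or replicate 2 or 3 of siLTBP2. *CBX5* (0.29, adjusted p = 0.047), near HOXC, codes for a heterochromatin protein, and it lost its call whichever library was left out. With the replicate number as a block 4 of the 10 passed, against 36.2% of all genes.

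Among the TALE cofactors, which bind DNA with HOX proteins, 4 of 9 tested genes changed, 2 in each direction, against 19.3% of all genes. *MEIS1* was at 35.1, 34.1 and 34.3 CPM in the siNT libraries and 60.1, 52.0 and 54.7 CPM after silencing, with no overlap (log2 fold change 0.69, edgeR adjusted p = 5.3e-04). *PBX3* rose from 16.1 ± 2.22 to 27.1 ± 3.24 CPM (SD, n = 3; 0.75, edgeR adjusted p = 0.0027). *PKNOX2* fell from 28.9 ± 2.90 to 12.5 ± 2.91 CPM (-1.21, edgeR adjusted p = 6.0e-04) and was the only member of this family past the 2-fold threshold. These 3 kept their calls with any 1 library left out. *MEIS3* had a log2 fold change of -0.33 (edgeR adjusted p = 0.022) and lost its call without each library but siLTBP2 replicate 2.

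**Figure D5:**
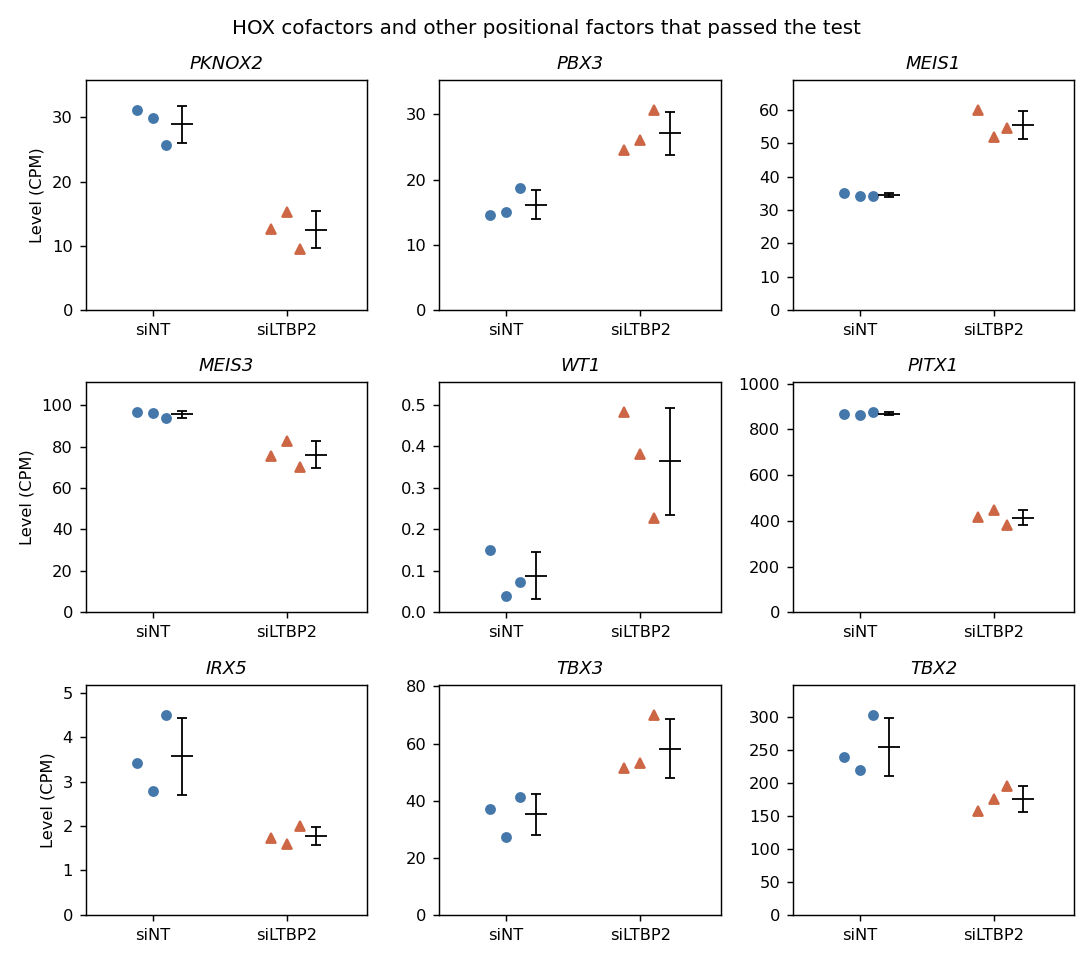
Level in CPM of the TALE cofactors that changed (*PKNOX2*, *PBX3*, *MEIS1*, *MEIS3*) and of 5 other positional transcription factors that changed (*WT1*, *PITX1*, *IRX5*, *TBX3*, *TBX2*). Circles are siNT libraries, triangles siLTBP2 libraries and the bars beside them the mean ± SD (n = 3), and in none of the 9 genes do the groups overlap.

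A list of 53 other transcription factors that mark body position was also read. Of its 24 tested genes, 8 changed, 3 upward and 5 downward, against 19.3% of all genes, and 2 were deregulated, against 2.57%. *PITX1*, which specifies the hindlimb, was at 865, 862 and 875 CPM in the siNT libraries and 416, 446 and 381 CPM after silencing. The groups were far apart (log2 fold change -1.07 ± 0.095, SE, with an edgeR adjusted p = 7.6e-05), and the call held with any 1 library left out. *IRX5* was the second deregulated gene, from 3.57 ± 0.87 to 1.77 ± 0.20 CPM (SD, n = 3; -1.01, edgeR adjusted p = 0.0080).

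The T-box gene *TBX3* rose (0.73, edgeR adjusted p = 0.010), and the related *TBX2* fell (-0.53, adjusted p = 0.016), although *TBX2* lost its call without siNT replicate 3, siLTBP2 replicate 1 or siLTBP2 replicate 2. *WT1* had the largest log2 fold change of the list (2.01, edgeR adjusted p = 0.019) at very low levels, with 7, 2 and 4 counts in siNT and 21, 18 and 12 in siLTBP2. Leaving out siNT replicate 2 or 3 or siLTBP2 replicate 1 or 2 ended its call. With the replicate number as a block 14 of the 24 genes passed, against 36.2% of all genes. Of the 6 ParaHox genes, relatives of HOX, none could be tested, and *CDX2*, an intestinal epithelial factor, was at most at 0.296 CPM.

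Of the chromatin genes that hold HOX clusters off, the Polycomb group, 7 of 27 tested changed, against 19.3% of all genes. The 5 of largest change were *JARID2* (log2 fold change 0.77), *MTF2* (0.63), *CBX2* (-0.60), *CBX7* (-0.50) and *PCGF5* (0.47), with adjusted p-values from 9.9e-04 to 0.025 in edgeR's quasi-likelihood test. *JARID2* and *MTF2* are accessory subunits of Polycomb repressive complex 2, and *CBX2* and *CBX7* are chromatin readers of complex 1. *EZH2*, the catalytic subunit of complex 2, was at 46.9 ± 4.68 CPM in the siNT libraries and 55.4 ± 0.94 CPM after silencing and did not pass (edgeR adjusted p = 0.099), but it passed with the replicate block (0.24, adjusted p = 0.011). Leaving out siNT replicate 1 or 2 or siLTBP2 replicate 1 or 3 ended the call of *CBX7*, and leaving out siNT replicate 1 or 2 or siLTBP2 replicate 2 that of *PCGF5*.

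Of 15 trithorax and H3K27 demethylase genes, which oppose Polycomb, 3 changed, close to the 19.3% of all genes. The methyltransferase gene *KMT2D* fell (-0.67, edgeR adjusted p = 0.0082), and *RBBP5* (0.42, adjusted p = 0.0053) and *ASH2L* (0.36, adjusted p = 0.018), core subunits of its complex, rose. The call of *ASH2L* ended when siNT replicate 1 or 2 or siLTBP2 replicate 2 was left out. With the replicate number as a block, 17 of the Polycomb genes and 8 of these 15 passed, against the 36.2% of all genes given above.

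Markers of other cell types were read beside these changes. Of 5 smooth muscle markers, *SMTN* (0.79) and *ACTG2* (0.57) rose, and the list summed to between 219 and 246 CPM in siNT and between 382 and 422 CPM in siLTBP2, while *MYH11*, *DES* and *CNN1* stayed at or below 0.115 CPM in every library. Of 9 fibroblast markers *PDGFRB* passed (-0.60), while with the replicate block all 9 did, 3 higher (*COL1A2*, *PDGFRA* and *VIM*) and 6 lower, against 36.2% of all genes. The list summed to between 9933 and 13204 CPM in siNT and between 10067 and 14406 CPM in siLTBP2. The 5 endothelial markers summed to between 67.5 and 83.6 CPM in siNT and between 59.9 and 74.3 CPM in siLTBP2, nearly all from *TEK*, and *PECAM1*, *CDH5* and *CLDN5* stayed at or below 0.254 CPM. The part of these differences in the HOX values was not tested.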

How the data were processed

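RNA from CCD18Co fibroblasts (3 siNT and 3 siLTBP2 libraries) was sequenced as stranded, ribosomal RNA depleted libraries. The submitters' processing notes name bcl2fastq, STAR 2.7.1a, HTSeq 0.11.2 and GRCh38, and the authors deposited raw counts per gene. For the Ensembl release and the strand setting of the counting, the sources used here give nothing.

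After filterByExpr and TMM scaling, counts went into the quasi-likelihood test of edgeR 4.0.16 (two-sided, R 4.3.3), with Benjamini-Hochberg adjustment over all 16920 genes. The likelihood ratio test named by the study served as an alternative. Each standard error (SE) was taken as |log2 fold change| over the root of F. CPM use TMM library sizes and TPM the exonic bases of GENCODE 44, in which 38 of the 39 HOX genes start where the deposited table places them. The exception was *HOXA10*, so its exonic length may differ from the one behind its counts. The steps were tested on simulated data.

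Members and gene lists were chosen with earlier results of these data known. Some genes, 1 HOX gene and markers among them, were counted but are not reported here. Named were all other HOX genes, the changed members of each other list (at most 5, by absolute log2 fold change), the cluster long noncoding RNAs of at least 1 CPM and *LTBP2*. *EZH2*, *CDX2*, *HOXA-AS3* and the markers were named in addition.

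Alternatives were the likelihood ratio test, DESeq2 1.42.0, scaling by RLE, by the upper quartile or by total counts, 2 other filters, other thresholds, other gene lengths, a replicate block and leaving out each library. Deviations from the group means correlated between libraries of the same replicate number by 0.44, 0.19 and 0.57 for log2(CPM + 0.5), and by 0.30, 0.083 and 0.43 for edgeR's log2 CPM. For log2(CPM + 0.5) in genes of at least 1 CPM they were 0.55, 0.30 and 0.67. For log2(CPM + 0.01) they were 0.28, 0.069 and 0.40. These correlations were computed in 4 ways, with the calls of the block already seen, and under 2 of them all 3 pairs were above 0.1, and with log2(CPM + 0.5) 6 of 6 libraries correlated best with their own number (between numbers, -0.50 to 0.072). Pairing was therefore hinted at but not settled, and blocked values are given beside the results they change. No column of another series was used (0 found). The libraries of each group differed by more than sampling noise (chi-square per degree of freedom from 27.8 to 55.2).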

Additional observations from a re-analysis of the deposited data

How the results depend on the processing

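*HOXA3*, *HOXA7* and *HOXA9* kept their direction and their call under every alternative run. Of the 28 tested HOX genes, the count that changed was 5 with upper-quartile scaling (2 higher, 3 lower) and 5 with total counts (1 higher, 4 lower). In both settings 19.2% of all genes changed. With no filter on low counts it was 7 of 35 HOX genes tested, against 11.5% of 33596 genes, and *HOXB13* passed (edgeR adjusted p = 0.038). Of the 28, the count was 11 with the replicate number as a block, against 36.2% of all genes. With each library left out it was between 3 and 7, against between 12.4% and 15.9% of all genes. At an adjusted p below 0.01 in the main fit it was 3, a count for which the share of all genes is not given here. With total counts *HOXB8* (-0.011) and *HOXC10* (-0.022) changed sign. When 1 library was left out, the log2 fold change crossed 0 for *HOXA5* (-0.20 to 0.036), *HOXB5* (-0.077 to 0.15), *HOXB8* (-0.27 to 0.31), *HOXC4* (-0.31 to 0.40), *HOXC6* (-0.14 to 0.015), *HOXC9* (-0.29 to 0.25) and *HOXC10* (-0.25 to 0.38), none of which passed the test. With the block, 4 of 10 tested neighbouring genes, 17 of 27 Polycomb genes and 8 of 15 trithorax and H3K27 demethylase genes passed. So did 14 of 24 other positional factors, 9 of 9 fibroblast markers and 1 of 2 endothelial markers, all against 36.2% of all genes. The likelihood ratio test called 2 fibroblast markers and 1 endothelial marker, against 22.5% of all genes. The cause of these differences was not tested. The alternatives for the 22 named genes of the other lists were added after the data were seen: 14 kept their call whichever library was left out, 21 under the other settings that gave an adjusted p (*CBX5* did not), and none changed sign. Depth limits the genes under 1 TPM, 4 of which were tested, and no protein sequence was read here.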
